A study of Mus musculus with 12 samples.

Results

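Cells make cholesterol from acetyl-CoA along the mevalonate pathway, and the 7 genes described here encode 6 of its enzymes and 1 protein that restrains it. Hmgcs1, Idi1 and Fdps act in the mevalonate and isoprenoid steps, Fdft1, Sqle and Lss in the steps from farnesyl diphosphate to lanosterol, and Insig1 in sterol sensing. The genes were chosen by name, with no measured value as a criterion but with earlier results of these data known. They are 7 of the 18193 genes named singly on the array. They took 18 of the 45037 probe sets tested, where a probe set is a group of array probes read as 1 value for a transcript. None of the 7 is an uptake receptor, so the set covers synthesis and its control only. For each gene, the probe set that read highest on average led, and the others were read beside it.

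As background, the adult brain makes nearly all of its own cholesterol, because plasma lipoproteins do not cross the blood-brain barrier. Myelin holds most of it, and astrocytes pass cholesterol to neurons. The transcription factor SREBP2 drives the genes of the pathway when membrane sterol is low. INSIG1 keeps SREBP2 and its escort protein SCAP in the endoplasmic reticulum when sterol is high, and Insig1 is itself a target of SREBP.

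The tissue came from mice that drank ethanol by free choice. Male mice of the Swiss stock, 6 weeks old at the start and 22 weeks old at the end, had chosen between water and 5% and 10% ethanol. The phases were 10 weeks of acquisition, 2 of withdrawal, 2 of reinstatement and 2 with quinine. Quinine at 0.005 g/L was added to the ethanol in the quinine phase. The labels also list 1 extra week of free choice, shared by all groups. Inflexible drinkers kept their preference for ethanol with quinine present, and light drinkers took more water than ethanol. Both classes had access to ethanol, and no array of mice given water only was used here. Average blood ethanol was 113 ± 11.3 mg/dL in inflexible drinkers and 48 ± 13.3 mg/dL in light drinkers per the labels, which do not say what kind of error this is. The 4 groups were inflexible striatum, light striatum, inflexible prefrontal cortex and light prefrontal cortex, with 3 arrays each. The labels give 1 RNA pool concentration per group, so the 3 arrays may be hybridisations of 1 pool, and every p-value covers the spread between arrays and not between mice. In tissue pieces of this kind, fewer cells of a type and less RNA per cell cannot be told apart.

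All values are the deposited log2 values. Their median lay between 3.12 and 3.14 on the 12 arrays, and 22.4% to 25.0% of probe sets lay above 4, the level used here as a floor. A difference is in log2 units, is given ± SE, and comes from a limma model of the 4 groups on all 12 arrays. It was called at a Benjamini-Hochberg adjusted p under 0.05 over all 45037 probe sets. The arrays also fell into separate sets by their spiked hybridisation controls, RNA of known amount added at hybridisation. These controls averaged 8.36 to 9.30 on 5 arrays and 6.47 to 7.06 on the other 7. The high arrays were inflexible striatum 1 and 3, light striatum 1, and replicate 2 of both prefrontal groups. The labels give no origin for this split, and it moved with most of the genes below.

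Hmgcs1, on chr13:119690351-119708260 (GRCm38.p6, as are all positions here), encodes the cytosolic synthase that joins acetyl-CoA and acetoacetyl-CoA into HMG-CoA. Its leading probe set 1433445_x_at had the clearest pattern of the 7 genes, a lower level in striatum than in prefrontal cortex. In striatum it read 7.07, 7.36 and 7.27 in inflexible drinkers, against 7.25, 7.35 and 7.29 in light drinkers. In prefrontal cortex it read 7.59, 7.66 and 7.55 in inflexible drinkers, against 7.59, 7.44 and 7.46 in light drinkers. All striatal arrays lay below all prefrontal arrays, while the drinking classes overlapped within each region.

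The 250 bases before the annotated start of Hmgcs1 are shown because they hold the letters of a sterol regulatory element, the sequence bound by SREBP. The stretch before the start of Insig1, the gene whose values ran against most of the others across arrays, is shown for comparison. Both are on the + strand, from RefSeq GRCm38.p6, and capitals mark matches on either strand to the sterol element TCACNCCAC and to the NF-Y box CCAAT, which reads ATTGG where it lies on the other strand.
Hmgcs1, chr13:119690101-119690350: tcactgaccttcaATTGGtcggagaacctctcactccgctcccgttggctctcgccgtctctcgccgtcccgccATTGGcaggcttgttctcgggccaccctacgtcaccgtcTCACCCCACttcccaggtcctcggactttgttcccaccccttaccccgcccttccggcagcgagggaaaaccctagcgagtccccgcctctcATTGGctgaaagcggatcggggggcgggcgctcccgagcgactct
Insig1, chr5:28071162-28071411: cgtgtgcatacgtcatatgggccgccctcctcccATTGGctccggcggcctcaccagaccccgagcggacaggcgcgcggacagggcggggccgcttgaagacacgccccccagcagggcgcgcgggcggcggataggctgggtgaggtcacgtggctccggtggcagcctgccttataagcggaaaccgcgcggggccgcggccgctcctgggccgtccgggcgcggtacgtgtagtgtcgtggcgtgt
The Hmgcs1 stretch held 1 match to the sterol element, written TCACCCCAC and beginning 137 bases before the start, and 3 NF-Y boxes. The Insig1 stretch held 0 matches to the sterol element and 1 NF-Y box. Of all 32851 mouse promoter stretches of this length, 1.05% held the sterol element and 33.8% an NF-Y box. Both genes, and also Idi1 and Lss, held at least 1 GC box GGGCGG, which 32.7% of all stretches held, and the NF-Y box was likewise present in 4 of these 4. The sterol element was present in 1 of these 4, that of Hmgcs1, and was lacking in Idi1 and Lss as in Insig1. No matches of different motifs overlapped. A match describes letters only, and the absence of these letters from the window says nothing of the factor. Stretches were looked up for all 7 genes and 4 were in the table used.

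**Figure D1:**
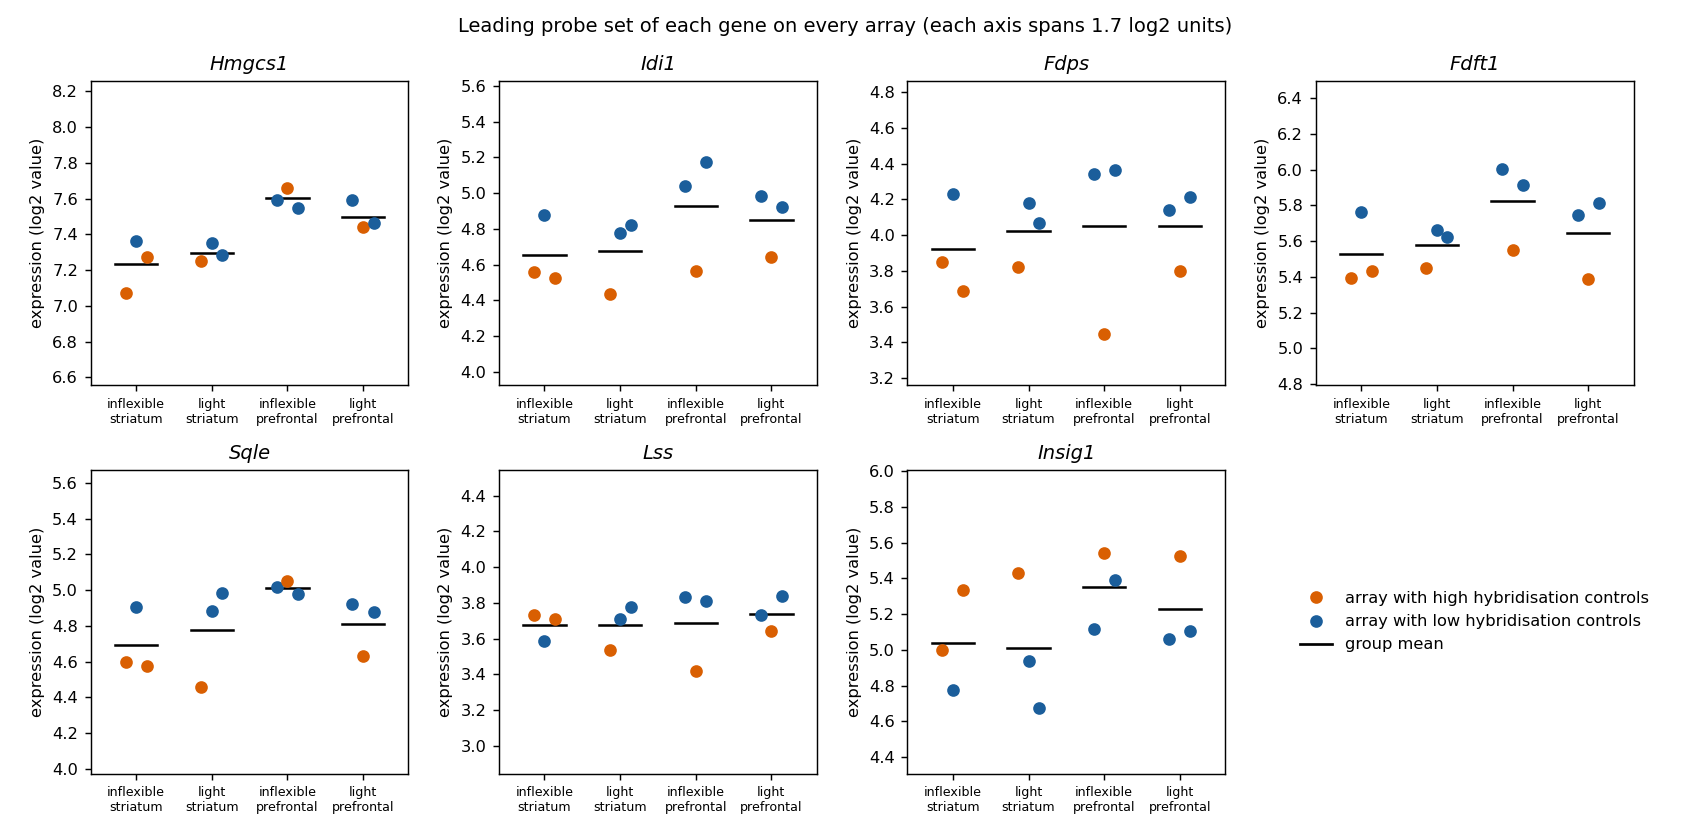
Log2 value (vertical axes) of the leading probe set of each gene on every array, in inflexible striatum, light striatum, inflexible prefrontal cortex and light prefrontal cortex (horizontal axes, 3 arrays each). Bars are group means and colour marks arrays with high or low hybridisation controls. The striatal Hmgcs1 points all lie below the prefrontal ones, and in Idi1, Fdps and Fdft1 the low points of each group are the arrays with high controls.

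Idi1 (chr13:8885606-8892396) encodes the isomerase that interconverts the isoprene building blocks. Its leading probe set read 4.56, 4.88 and 4.53 in inflexible and 4.44, 4.78 and 4.82 in light striatum. It read 5.04, 4.56 and 5.17 in inflexible and 4.98, 4.64 and 4.92 in light prefrontal cortex. The groups overlapped in every comparison, and within each group the arrays with high controls were the lowest.

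Fdps (chr3:89093588-89101967) encodes farnesyl diphosphate synthase, which builds the chain shared by sterols and prenyl groups. Its values lay close to the floor, at 3.85, 4.23 and 3.69 in inflexible and 3.82, 4.18 and 4.07 in light striatum. In prefrontal cortex they were 4.34, 3.44 and 4.36 in inflexible and 4.14, 3.80 and 4.21 in light drinkers. The 3.44 came from replicate 2 of inflexible prefrontal cortex, an array with high controls, and the spread of that group was the widest of all for a leading set (SD 0.52, n = 3).

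Fdft1 (chr14:63145150-63181687) encodes squalene synthase, the first step that leads only to sterols. Its leading probe set 1438322_x_at read 5.40, 5.76 and 5.43 in inflexible and 5.45, 5.67 and 5.62 in light striatum. In prefrontal cortex it read 6.00, 5.55 and 5.91 in inflexible and 5.74, 5.39 and 5.81 in light drinkers. The array with high controls was again the lowest in both prefrontal groups and in light striatum, and both such arrays were the lowest in inflexible striatum. Probe sets ending in _x_at, here those leading for Hmgcs1 and Fdft1, hold probes that can match other transcripts too.

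Sqle (chr15:59315092-59331193) encodes squalene epoxidase, a rate-limiting step of the sterol arm, and had a single probe set. It read 4.60, 4.91 and 4.58 in inflexible and 4.46, 4.88 and 4.98 in light striatum. In prefrontal cortex it read 5.02, 5.05 and 4.98 in inflexible and 4.92, 4.63 and 4.88 in light drinkers. All 3 inflexible prefrontal arrays lay above all 3 light prefrontal arrays, and also above the inflexible striatal arrays.

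Lss (chr10:76531565-76557139) encodes lanosterol synthase, which closes the sterol rings. Its leading probe set had a mean of 3.69 over the 12 arrays, below the floor, so little can be read from it. The values were 3.73, 3.59 and 3.71 in inflexible and 3.54, 3.71 and 3.77 in light striatum. They were 3.83, 3.42 and 3.81 in inflexible and 3.73, 3.65 and 3.84 in light prefrontal cortex, with all groups overlapping.

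Insig1 (chr5:28071412-28078662), the sterol sensor, had a single probe set. It read 5.00, 4.78 and 5.34 in inflexible and 5.43, 4.94 and 4.67 in light striatum. In prefrontal cortex it read 5.12, 5.54 and 5.39 in inflexible and 5.06, 5.52 and 5.11 in light drinkers. The groups overlapped, and here the arrays with high controls were the highest of each group.

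Drinking class made no called difference in any of the genes in prefrontal cortex. The test called 0 of 7 genes and 0 of 18 probe sets, against 0.826% of all probe sets, and 0 of 7 had an unadjusted p under 0.05. The difference was positive in 5 genes and negative in 2, with a median of 0.10, against a median of 0.01 over the 10852 probe sets with a mean above 4. Sqle had the largest difference, with 5.01 ± 0.04 in inflexible and 4.81 ± 0.16 in light drinkers (SD, n = 3 each). Its difference was 0.21 ± 0.14, with a 95% confidence interval of -0.11 to 0.52 and an adjusted p of 0.921. It was the only 1 of the 7 whose arrays did not overlap with inflexible drinkers higher, a pattern held by 6.48% of all probe sets. Within the arrays with low controls the Sqle difference was 0.10 ± 0.04. Within those with high controls, 1 array a group, it was 0.42, for which no SE is given. Without replicate 2 of light prefrontal cortex it was 0.12 ± 0.15.

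Fdft1 followed at 0.18 ± 0.15 (adjusted p = 0.972), Insig1 at 0.12 ± 0.22 (adjusted p = 1) and Hmgcs1 at 0.10 ± 0.07 (adjusted p = 0.924). Idi1 differed by 0.08 ± 0.17, Fdps by 0.00 ± 0.25 and Lss by -0.05 ± 0.11. The intervals of the 7 leading sets together ran from -0.55 to 0.60. Of the second sets above the floor, Fdft1 1448130_at differed by 0.02 ± 0.11 and Idi1 1423804_a_at by 0.20 ± 0.23. For Hmgcs1, the most precisely measured, the interval in folds was 0.962 to 1.20. Same-numbered prefrontal arrays deviated together, but replicate 2 was the high-control array in both groups, so pairing and the split cannot be told apart. With the replicate number as a block on the prefrontal arrays, 0 of 7 genes were called, against 899 of all 45037 probe sets. With the control split as a block on all arrays, 0 of 7 were called, against 1119 of all 45037 probe sets. In that fit 1 of 7 had an unadjusted p under 0.05, Fdft1 at 0.18 ± 0.05 (adjusted p = 0.119).

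In striatum, drinking class also made no called difference, with 0 of 7 genes against 0.0111% of all probe sets and 0 of 7 with an unadjusted p under 0.05. The differences ran from -0.10 in Fdps to 0.02 in Insig1, with a median of -0.05, against -0.01 over probe sets with a mean above 4. Hmgcs1 differed by -0.06 ± 0.07, with an interval of -0.22 to 0.10, and the intervals of all 7 ran from -0.66 to 0.51. In no gene did the leading sets of the classes separate. The striatal groups had unequal numbers of high-control arrays, 2 of 3 in inflexible and 1 of 3 in light drinkers. With the split as a block the median turned to 0.05, and over probe sets with a mean above 4 it turned to 0.03. Idi1, Fdps, Fdft1 and Sqle turned from negative to positive and Insig1 from positive to negative, and none had an adjusted p below 0.721.

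Averaged over both regions, 0 of 7 genes were called, against 0.311% of all probe sets, and the differences ran from -0.05 to 0.07. With the control split as a block, 0 of 7 were called in this average, against 436 of all 45037 probe sets. There 6 of 7 were positive, with a median of 0.03 against 0.02 over probe sets with a mean above 4. An unadjusted p under 0.05 was found in 2 of them, Fdft1 (adjusted p = 0.202) and Idi1 (adjusted p = 0.427). The striatal minus the prefrontal class difference, which tests whether the regions differ, was also called in 0 of 7 genes, against 0.313% of all probe sets. It was negative in 6 of 7, with a median of -0.10 against -0.02 over probe sets with a mean above 4, and every adjusted p was 0.999. The widest was again Sqle at -0.29 ± 0.20, and its interval of -0.73 to 0.16 included 0. With the control split as a block, the same contrast was positive in 3 genes and negative in 4. Its median was then -0.11, against 0.02 over probe sets with a mean above 4, and the widest was Insig1 at -0.24 ± 0.16.

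**Figure D2:**
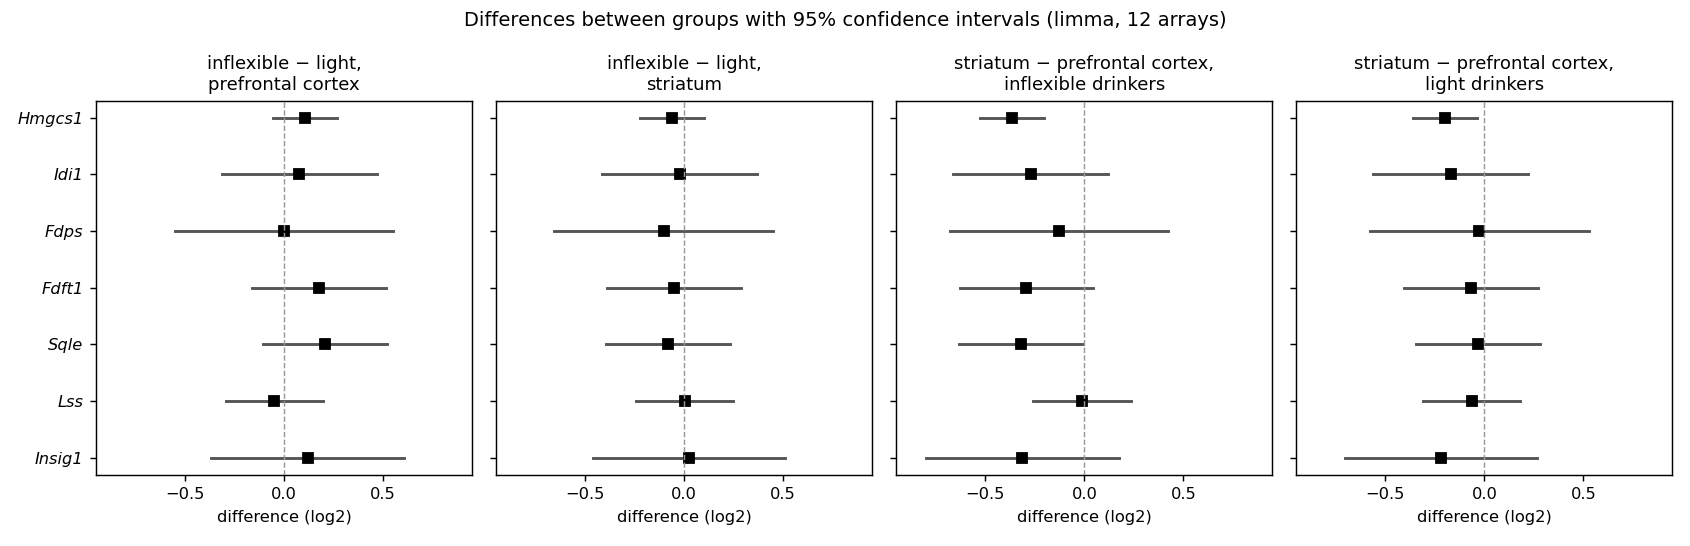
Difference of each gene's leading probe set in log2 units (horizontal axes, squares) with its 95% confidence interval (lines), for inflexible minus light drinkers in each region and striatum minus prefrontal cortex in each class. In both class comparisons every interval includes 0, while in the comparisons of regions the Hmgcs1 intervals, and that of Sqle in inflexible drinkers, lie below 0.

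In the comparison of regions all 7 genes had the same sign in both classes. In inflexible drinkers the striatal level was lower than the prefrontal level in 7 of 7 genes, with a median difference of -0.29, against -0.02 over probe sets with a mean above 4, of which 53.6% were negative. In light drinkers it was also lower in 7 of 7, with a smaller median of -0.07 against 0.01 and 47.7%. At the threshold, 0 of 7 genes were called in inflexible drinkers, against 0.773% of all probe sets, and 0 of 7 in light drinkers, against 3.32%. An unadjusted p under 0.05 was found in 2 genes in inflexible drinkers and in 1 in light drinkers. Each region comparison shares its arrays with the class comparisons above, so they are not separate evidence.

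Hmgcs1 carried the clearest region difference. In inflexible drinkers it averaged 7.24 ± 0.15 in striatum and 7.60 ± 0.06 in prefrontal cortex (SD, n = 3 each). The difference was -0.37 ± 0.07, a fold of 0.776 with an interval of 0.694 to 0.868, and the adjusted p was 0.0619. In light drinkers it averaged 7.30 ± 0.05 in striatum and 7.50 ± 0.08 in prefrontal cortex (SD, n = 3 each). There the difference was -0.20 ± 0.07, a fold of 0.870 with an interval of 0.779 to 0.973, and the adjusted p was 0.256. Ordered by level of this leading set, inflexible prefrontal cortex came above light prefrontal cortex, then light striatum and inflexible striatum. Neighbours within a region overlapped and were not called apart, as given above, and light striatum lay below light prefrontal cortex on every array. In 1433443_a_at and 1433444_at inflexible striatum lay above light striatum instead, at 7.11 against 7.10 and 7.06 against 6.99.

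The Hmgcs1 difference was near the threshold and its call depended on the fit. With the control split as a block it was -0.34 ± 0.07 in inflexible drinkers (adjusted p = 0.0441), so 1 of 7 genes was called, against 2.16% of all probe sets. In light drinkers 0 of 7 were called in that fit, against 7.00%, with Hmgcs1 at -0.20 ± 0.07 (adjusted p = 0.145). For the arrays of each control level alone, no SE is given where a group compared held 1 array. Within the low-control arrays the difference was -0.21 in inflexible and -0.21 ± 0.05 in light drinkers. Within the high-control arrays it was -0.49 in inflexible and -0.19 in light drinkers. Without replicate 2 of inflexible striatum it was -0.43 ± 0.07 (adjusted p = 0.0354). In the fit with the block, leaving out each array in turn gave an adjusted p of 0.0432 to 0.272 in inflexible drinkers, called in 1 of 12.

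Hmgcs1 had 4 probe sets above the floor, and 8 of their 8 region differences were negative. In inflexible drinkers they were -0.37 ± 0.07 for 1433445_x_at, -0.35 ± 0.13 for 1433443_a_at, -0.27 ± 0.09 for 1433444_at and -0.49 ± 0.23 for 1433446_at. In light drinkers the same probe sets were at -0.20 ± 0.07, -0.26 ± 0.13, -0.27 ± 0.09 and -0.18 ± 0.23, listed alike. None was called in the model without the block. With the block, 1433443_a_at passed in both classes, at -0.26 ± 0.04 (adjusted p = 0.0226) in inflexible and -0.26 ± 0.04 (adjusted p = 0.00713) in light drinkers. In that fit 2 of 18 probe sets of the genes were called in inflexible drinkers, against 2.16% of all probe sets, and 1 of 18 in light drinkers, against 7.00%, a share no higher than that of all probe sets. Leaving out each array in turn, the inflexible call of 1433443_a_at held in 10 of 12 fits. It was lost without replicate 2 of inflexible prefrontal cortex (adjusted p = 0.138) and without replicate 3 (adjusted p = 0.0800). The light call held in 12 of 12. As deposited, its arrays overlapped between regions, with 6.91, 7.21 and 7.19 in light striatum and 7.45, 7.19 and 7.43 in light prefrontal cortex. The array at 6.91 and the prefrontal one at 7.19 had high controls.

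**Figure D3:**
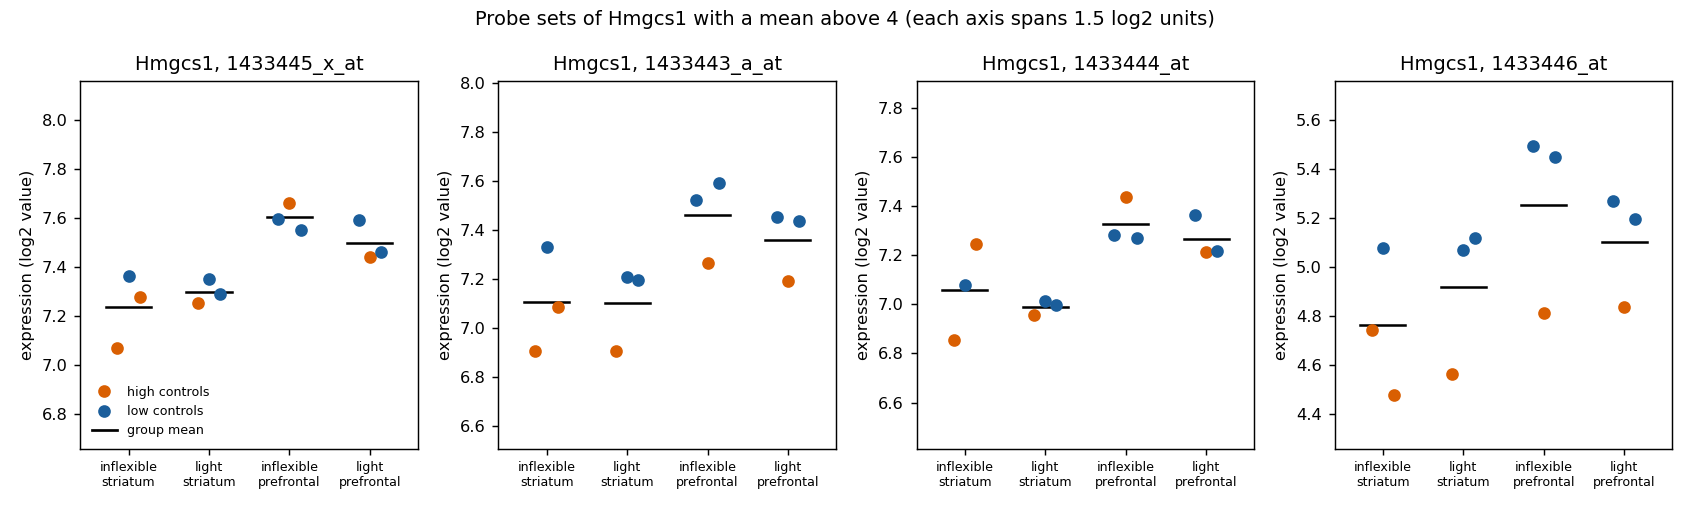
Log2 values (vertical axes) of the 4 Hmgcs1 probe sets with a mean above 4, by group (horizontal axes, 3 arrays each), with group means as bars and colour for high or low hybridisation controls. Striatal means lie below prefrontal means in every panel, and arrays with high controls sit low in 1433443_a_at and 1433446_at but not in 1433444_at.

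The other genes differed less clearly between regions. Sqle averaged 4.69 ± 0.19 in striatum and 5.01 ± 0.04 in prefrontal cortex of inflexible drinkers (SD, n = 3 each). Its difference there was -0.32 ± 0.14 (adjusted p = 0.657), and in light drinkers it was -0.03 ± 0.14. The arrays of the regions did not overlap, striatum lower, in 2 of 7 genes in inflexible drinkers (Hmgcs1 and Sqle), a pattern held by 5.98% of all probe sets. In light drinkers it was 1 of 7 (Hmgcs1), against 8.65%.

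In inflexible drinkers the difference was -0.31 ± 0.22 for Insig1, -0.29 ± 0.15 for Fdft1, -0.27 ± 0.17 for Idi1, -0.13 ± 0.25 for Fdps and -0.01 ± 0.11 for Lss. In light drinkers it was -0.22 ± 0.22 for Insig1, -0.07 ± 0.15 for Fdft1, -0.17 ± 0.17 for Idi1, -0.03 ± 0.25 for Fdps and -0.06 ± 0.11 for Lss. The second Fdft1 set above the floor, 1448130_at, was at -0.06 ± 0.11 in inflexible and -0.12 ± 0.11 in light drinkers. The second Idi1 set, 1423804_a_at, was at -0.33 ± 0.23 in inflexible and -0.04 ± 0.23 in light drinkers. None of these passed the test, and every interval included 0. With the split as a block, the inflexible differences of Fdps and Lss turned to 0.04, so that 5 of 7 were negative, and the median moved to -0.18, while over probe sets with a mean above 4 it was 0.02. In that fit Insig1 was at -0.46 ± 0.12 (adjusted p = 0.102) and Fdft1 at -0.18 ± 0.05 (adjusted p = 0.123).

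The split in the hybridisation controls was the difference in which most of these genes were called. On arrays with high controls, 4 of 7 leading sets were lower and 1 higher at an adjusted p under 0.05, against 27.7% of all probe sets, and 52.2% of those with a mean above 4, called in either direction. For this number of genes, 5 of 7 is not far from the share above 4. Fdps was lower by 0.51 ± 0.09 on the log2 scale, Idi1 by 0.39 ± 0.04, Fdft1 by 0.33 ± 0.04 and Sqle by 0.25 ± 0.07. Insig1 went the other way, averaging 5.37 on high-control and 5.01 on low-control arrays, a fitted difference of 0.43 ± 0.09 (adjusted p = 0.00645). The leading Hmgcs1 set differed by -0.06 ± 0.05 and Lss by -0.15 ± 0.07, neither of them called. The median over probe sets with a mean above 4 was -0.12, and 66.4% of them were lower on high-control arrays.

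Probe sets of the same gene differed in this respect. In Hmgcs1, 1433443_a_at was at -0.29 ± 0.03 and 1433446_at at -0.51 ± 0.05 on high-control arrays, while 1433444_at was at 0.00 ± 0.07. In Fdft1, 1448130_at was at -0.15 ± 0.07 and, unlike the leading set, was not called (adjusted p = 0.143). In Idi1, 1423804_a_at was at -0.39 ± 0.12 (adjusted p = 0.0387). The level of the 18S ribosomal RNA 5′ control was 5.90 to 8.45 on the 5 high-control arrays and 9.31 to 9.85 on the 7 low-control arrays. Poly-A spike controls, RNA added before labelling, were 3.57 to 3.92 on high-control and 3.83 to 4.56 on low-control arrays. The part of labelling or RNA quality in these values was not tested.

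**Figure D4:**
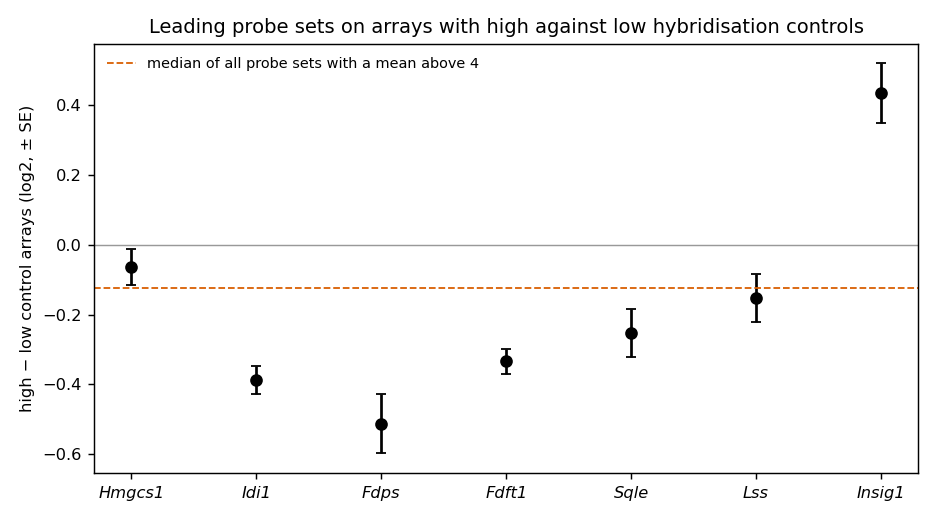
Fitted difference in log2 units (vertical axis, points with SE) between arrays with high and arrays with low hybridisation controls, for the leading probe set of each gene (horizontal axis). The dashed line is the median of all probe sets with a mean above 4, at -0.12. Insig1 stands at 0.43 and the other genes lie between -0.51 and -0.06.

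Across the 12 arrays the leading sets of Idi1 and Fdft1 varied most alike (Pearson r = 0.92), followed by Idi1 and Fdps (0.87) and Fdps and Fdft1 (0.83). Insig1 ran against Idi1, Fdps, Fdft1, Sqle and Lss, with r of -0.29 to -0.53, and with Hmgcs1 at 0.35. On the 7 low-control arrays alone its r with the other genes was 0.15 to 0.85, positive for 6 of 6. These are descriptions over few arrays that share group, region and control split. The mean of the 7 genes, each centred on its own mean, was highest at 0.24 and 0.20 in replicates 3 and 1 of inflexible prefrontal cortex. It was lowest at -0.19 in replicate 1 of inflexible striatum, an array with high controls.

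Of 3220 other named genes with a mean of at least 5, those whose leading sets followed this mean most closely over the 12 arrays were Tm9sf3 (r = 0.97), Nmnat2 (0.95), Rasl11b (0.93) and Ppm1l (0.92). Fem1b, Smyd2, Prnp and Psma5 came next, each at 0.92. An r above 0.9 was found in 0.497% of the candidates. On the 7 low-control arrays the r of these 8 genes was 0.75 to 0.98, and all 8 were lower on high-control arrays, by 0.12 to 0.62. The 8 were picked by their r over the same 12 arrays, so neither value is a separate check.

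The rest of the pathway was read from a list of 39 further genes, of which 32 were named in the probe table used and 24 had a mean above 4. In the class comparisons of prefrontal cortex, striatum, both regions averaged and their difference, 0 of 32 were called. The medians were 0.02 in prefrontal cortex and -0.01 in striatum. Among regulators, Insig2, the second sterol-sensing INSIG protein, differed by 0.30 ± 0.13 in prefrontal cortex (adjusted p = 0.617). Nr1h3, the sterol-activated receptor LXR alpha, differed by 0.10 ± 0.05 (adjusted p = 0.787) from a mean of 3.05, below the floor. Hsd17b7, a sterol arm reductase, differed by 0.22 ± 0.13 (adjusted p = 0.874).

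Cyp46a1, the neuronal hydroxylase that turns cholesterol into a form that leaves the brain, had the widest class values. Its difference was -0.32 ± 0.22 in prefrontal cortex (adjusted p = 0.926) and 0.33 ± 0.22 in striatum (adjusted p = 1). The difference between regions was 0.65 ± 0.31 (adjusted p = 0.953). In striatum the next smallest p-values were those of Dhcr7, the reductase of the last synthesis step (0.21 ± 0.17), Npc1, a lysosomal cholesterol exporter (-0.12 ± 0.10), and Ggps1, which makes geranylgeranyl diphosphate (-0.08 ± 0.07), each with an adjusted p of 1.

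Between regions, 0 of 32 pathway genes were called in either class. In light drinkers the sterol dehydrogenase Nsdhl differed by -0.16 ± 0.05 (adjusted p = 0.165), the apolipoprotein E receptor Lrp8 by -0.33 ± 0.10 (adjusted p = 0.173), and the lanosterol demethylase Cyp51 by -0.45 ± 0.18 (adjusted p = 0.347). The cholesterol exporter Abcg1 differed by 0.16 ± 0.07 (adjusted p = 0.481). In inflexible drinkers Lrp8 differed by -0.37 ± 0.10 (adjusted p = 0.254), Abca1, another exporter, by 0.34 ± 0.11 (adjusted p = 0.351), Nsdhl by -0.13 ± 0.05 (adjusted p = 0.593) and Insig2 by -0.28 ± 0.13 (adjusted p = 0.690).

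With the split as a block, 3 of 32 pathway genes were called in each class, against 2.16% of all probe sets in inflexible and 7.00% in light drinkers. In both classes 2 of them rose in striatum. They were Srebf1, which encodes the transcription factor SREBP1, and Mbtps1, the protease that makes the first cut in SREBP. Srebf1 differed by 0.20 in inflexible drinkers (adjusted p = 0.0410) and 0.23 in light drinkers (adjusted p = 0.00855). Mbtps1 differed by 0.37 in inflexible drinkers (adjusted p = 0.0250) and 0.35 in light drinkers (adjusted p = 0.00998). In light drinkers Cyp51 fell by 0.45 (adjusted p = 0.0254), and in inflexible drinkers Lipa, the lysosomal lipase that frees cholesterol from its esters, fell by 0.28 (adjusted p = 0.0353). On high-control arrays 12 of 32 were lower and 5 higher at the threshold, 53.1% in all, near the 52.2% of probe sets with a mean above 4.

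Markers of several cell types, myelin-forming cells among them, moved between the groups compared. In prefrontal cortex, 6 of 14 myelin and oligodendrocyte markers rose in inflexible drinkers, against 0.826% of all probe sets called in either direction. Their mean log2 level was 5.32 to 5.40 on inflexible and 4.47 to 4.60 on light arrays. Of 10 markers of striatal projection neurons, 6 rose there, with a mean level of 5.59 to 5.68 on inflexible and 4.61 to 4.69 on light arrays. In the same comparison 0 of 12 astrocyte markers were called, and the choroid plexus marker Ttr rose by 6.25, the only 1 of 8 in that list. Of 9 cortical excitatory markers, Neurod6 and Lmo3 rose, but the list ran from -0.95 to 1.05 with a median of -0.11, and with the split as a block Cux2 fell as well. With that block 10 of 14 myelin, 7 of 10 striatal projection neuron and 3 of 8 choroid plexus markers (Ttr, Clic6 and Otx2) rose. In that fit 1119 of all 45037 probe sets were called in either direction. In striatum, 0 markers of these 5 lists were called between classes.

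Between regions, 10 of 10 striatal projection neuron markers were higher in striatum in both classes, the direction that the tissue labels give. This does not show that the prefrontal pieces of both classes were alike, and these markers differed between them, as given above. Of all probe sets, 0.773% were called between regions in inflexible and 3.32% in light drinkers. Of the myelin markers, 1 of 14 (Ugt8a) rose in striatum of inflexible drinkers and 12 of 14 in striatum of light drinkers. With the split as a block these counts were 7 of 14 in inflexible and 14 of 14 in light drinkers. Astrocyte markers were called in 0 of 12 in inflexible drinkers and fell in 2 of 12 (Slc1a3 and Gjb6) in light drinkers. The cortical markers Tbr1 and Cux2 fell in both classes, as did Nrn1 in inflexible and Rorb in light drinkers, where Neurod6 and Lmo3 rose. Of the choroid plexus markers 0 of 8 were called in inflexible drinkers, and 5 of 8 (Ttr, Kl, Clic6, Kcnj13 and Otx2) rose in light drinkers. These names were chosen after their values were seen, and the part of these cells in the levels of the 7 genes was not tested.

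**Figure D5:**
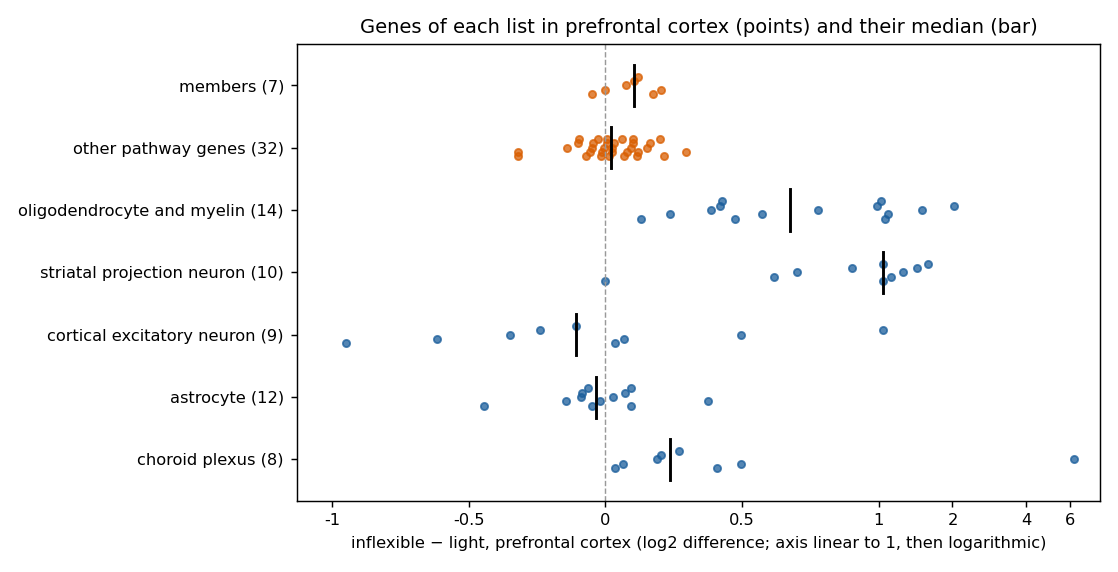
Inflexible minus light difference in prefrontal cortex (horizontal axis, log2 units, linear to 1 and logarithmic beyond) of each gene in a list (points, lists in rows, number of genes in brackets), with the median as a bar. The 7 genes and the 32 other pathway genes lie near 0, with medians of 0.10 and 0.02, while the myelin and striatal projection neuron markers have medians of 0.68 and 1.04.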

How the data were processed

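The authors deposited 1 table of log2 probe set values for the 12 one-colour arrays. RMA, which corrects background, normalises and summarises probes, and the affy package are named without versions in the submitters' processing notes. The log base was read from the values, and RMA compresses differences of weak probe sets. Depth does not apply to arrays, and their number limits the precision. The 64 control probe sets were left out. Of the others, 34945 carried 1 gene symbol, 932 several and 9160 none in the platform annotation.

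A model of 4 group means (8 residual degrees of freedom) was fitted with limma 3.58.1 in R 4.3.3, and tested on simulated data first. P-values are two-sided. The members, gene lists and alternatives were chosen with earlier results of these data known. Genes named beside the members were those of the pathway list called in a comparison or, with none called, the 4 with the smallest p, and the 8 genes most alike over the arrays. Marker lists were to be named only beside a called member, so those named were chosen after their values were seen. The split of the arrays lies at the largest gap between their mean hybridisation controls.

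Replicate numbers were checked as pairs by the correlation of arrays' deviations from their group means. The same-numbered prefrontal arrays correlated at 0.74, 0.85 and 0.62. Replicate 2 was the high-control array in both of these groups, so the correlations cannot tell pairs from the control split. Same-numbered striatal arrays correlated at 0.25, 0.26 and -0.64 and were not taken as pairs. Within groups, arrays correlated at 0.976 to 0.998 and no array repeated another. Promoters came from RefSeq (GRCm38.p6) and were searched with Python 3.11.15.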

Additional observations from a re-analysis of the deposited data

How the results depend on the processing

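Under 11 other settings and with each of the 12 arrays left out in turn, the 911 refitted values of a gene in a comparison included 5 at an adjusted p under 0.05, all of them Hmgcs1 between regions. In inflexible drinkers 1 of 7 genes was called, in place of 0, with quantile normalisation (adjusted p = 0.0416), with array weights (0.0355) and with the control split as a block (0.0441). Of all 45037 probe sets, 408, 886 and 972 were called in these fits, listed alike. Leaving out arrays gave 0 to 1, the 1 without replicate 2 of inflexible striatum (0.0354), where 329 of all probe sets were called. In light drinkers 1 was called, in place of 0, with array weights (0.0461), where 4685 of all 45037 probe sets were called. The sign differed from that reported in 107 of the 911, none of them called, and in 13 of the 396 whose reported difference was at least 0.1 in size. No other count of called genes moved.

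The median of the genes changed sign in the striatal class comparison, reported at -0.05, which was 0.05 with the control split as a block, 0.04 in the arrays with low controls, and 0.02 without replicate 1 of inflexible striatum. The class median averaged over regions, reported at 0.03, was -0.01 with array weights and as low as -0.02 without 1 array. For striatum minus prefrontal cortex in inflexible drinkers, reported at -0.29, it was -0.18 with the control split as a block and -0.14 on the high-control arrays alone, and -0.38 to -0.21 without 1 array. For the striatal minus the prefrontal class difference, reported at -0.10, it was -0.27 with array weights and -0.27 to -0.073 without 1 array. The cause was not tested.

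The replicate block on all arrays called 0 of 7 genes in every comparison and moved the prefrontal class calls over all probe sets to 206, against 372. On the prefrontal arrays alone, an alternative chosen after seeing the data, it called 0 of 7, with Fdft1 at an adjusted p of 0.148 and Sqle at 0.340, and 899 of all probe sets. That count was also 215 with a filter on low values, which tests fewer probe sets, 198 with only the groups compared, 2955 with array weights, 1119 with the split as a block, and 157 to 394 without 1 array. On the high-control arrays alone, with 1 residual degree of freedom, it was 0. With array weights, the region counts were 886 in inflexible and 4685 in light drinkers, against 348 and 1496. With only the groups compared, they were 61 and 1014 in the same classes, on the low-control arrays alone 504 and 3775, with the split as a block 972 and 3152, and without 1 array 158 to 404 and 942 to 1607. The low-control arrays alone gave 1243 prefrontal class calls. The counts for the class difference in striatum, for that averaged over regions and for the striatal minus the prefrontal one were 5, 140 and 141. They were 34, 436 and 443 with the split as a block, 7, 715 and 800 with array weights, 4, 57 and 51 with the replicate block on all arrays, 2, 87 and 120 with the filter, and 0, 297 and 178 on the low-control arrays. The probe sets of Lss and most of those of Fdps lie at or under the floor, where RMA leaves little room to see a difference.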
